A study of Cricetulus griseus with 16 samples.

Results

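The 10 genes described here encode enzymes that make, convert or break down ceramide and its relatives: SPTLC1 and SPTLC2 (written Sptlc1 and Sptlc2 below), Cers2, Cers5, Cers6, Degs1, Sgms1, Smpd1, Ugcg and Sphk1. They were taken by name, with letter case ignored, from the 20824 genes of the deposited table of read counts. Each of the 10 names was found once and 0 were absent. The RNA came from CHO, a Chinese hamster ovary cell line (ATCC CCL-61), grown in F-12K medium with fetal bovine serum. Untreated cultures stayed at 37 °C, and the heated cultures were held at 40 °C for either 1 h or 6 h (mild heat) or, in the moderate heat group, at 42.5 °C for 1 h. Each group had 4 cultures, which the study calls biological repeats and the labels letter A to D. No group carried a genetic change or a drug. The comparisons ask which of these transcripts were higher or lower after each heat dose, and whether the doses differed from each other.

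Sphingolipids are membrane lipids built on a long-chain amino alcohol, and ceramide is their common intermediate. Ceramide is assembled in the endoplasmic reticulum and then turned into sphingomyelin or glycosphingolipids, or it is broken down to sphingosine, which can be phosphorylated to the signaling lipid sphingosine 1-phosphate. Together with cholesterol these lipids set the order of the plasma membrane, and ceramide itself takes part in cellular stress responses.

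The libraries held between 10504192 and 14668365 counted reads, and every one of the 10 genes was well above the floor of 3 counts, with at least 186 counts (Cers6) and at most 3472 (Degs1) in the libraries compared. One control library, 37 °C replicate D, stood apart from the other controls. Its difference from them beyond counting error, as chi-square per degree of freedom, was 41.6 to 49.4, against 2.54 to 8.01 for the 21 other pairs of replicates. The study leaves out 1 control sample, and replicate D is the library whose counts are not those it prints, so the comparisons below use 3 controls and give the effect of adding replicate D where it ends a call. The fibroblast-type marker Vim was at 1813 to 2605 CPM (read counts scaled to the size of the library), and Col1a1, another mesenchymal marker, was at 0.189 CPM or less. The epithelial marker Epcam was at 0.0897 CPM or less, Cdh1 was at 1.70 to 4.23 CPM, and the ovarian granulosa genes Foxl2, Fshr and Cyp19a1 were at 0 in all 16 libraries, although Amh reached 7.09 CPM. The heat labels were matched by the chaperone gene Dnajb1, which lay at 26.3 to 30.2 CPM in the 3 controls, 52.9 to 125 CPM at 40 °C for 1 h, 39.9 to 54.5 CPM at 40 °C for 6 h and 242 to 526 CPM at 42.5 °C. Levels below are CPM scaled by TMM, a correction for library composition. They are not per transcript length and are therefore not compared between genes, and in bulk RNA fewer cells with a transcript and less transcript per cell cannot be told apart.

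The transcripts of these enzymes moved little with heat, and the clearest difference was a lower level of Ugcg, the enzyme that puts glucose on ceramide. A gene is said here to have passed when its adjusted p (edgeR's quasi-likelihood test, Benjamini-Hochberg over all genes tested) was under 0.05, and is called a DEG when it also differed by at least 1.5-fold. With 1 h at 40 °C, 0 of the 10 enzymes passed, where 1.64% of the 10494 genes tested did. After 6 h at 40 °C, 2 enzymes passed, Ugcg and Sphk1, both lower, where 29.4% of 10499 genes passed and 14.8% passed as lower. After 1 h at 42.5 °C, 5 passed, with Sptlc2 and Degs1 higher and Ugcg, Sphk1 and Cers2 lower, where 43.1% of 10470 genes passed, 20.8% as higher and 22.3% as lower. These counts of members are close to the shares of all genes and do not set the enzymes apart.

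None of the 10 enzymes was a DEG in any of these comparisons, where 0.334%, 3.11% and 7.51% of the genes tested were. The 95% intervals of all their differences lay within 1.5-fold (0.58 on the log2 scale), the lowest bound being -0.57 for Ugcg at 42.5 °C. The median size of the 10 log2 differences was 0.05 after 1 h at 40 °C, 0.09 after 6 h and 0.14 at 42.5 °C, beside 0.07, 0.13 and 0.16 for all genes tested. The signed medians were 0.03, -0.09 and 0.02, and those of all genes tested were 0.00 in each comparison.

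**Figure D1:**
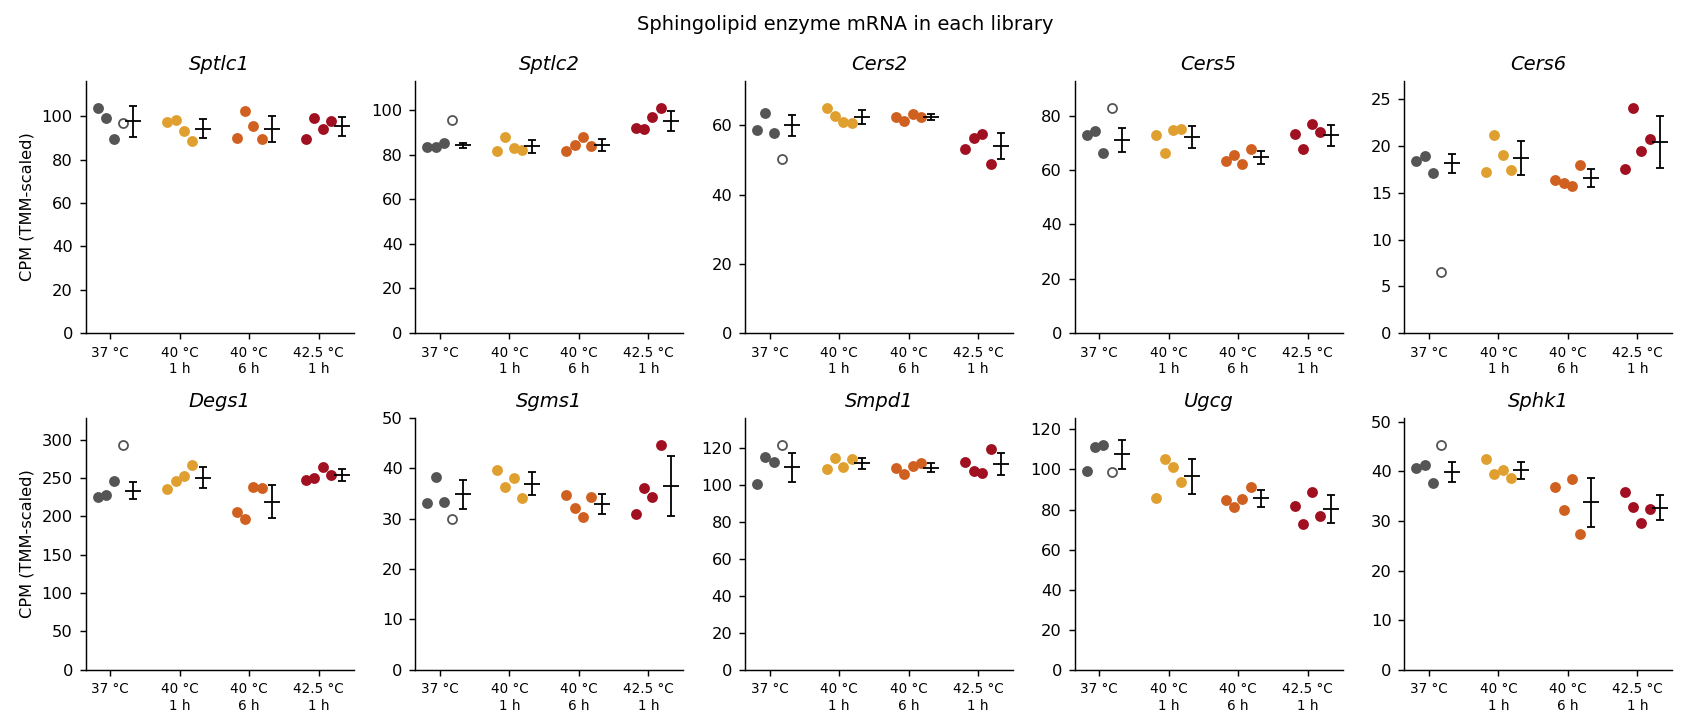
TMM-scaled CPM of each enzyme (vertical axes from 0, a separate scale per gene) in every library of the 4 groups. Filled points are the libraries compared, the open point is 37 °C replicate D, and the bar is the mean ± SD of the filled points. Ugcg falls from a mean of 108 CPM at 37 °C to 80.1 CPM at 42.5 °C, and the Cers6 point of replicate D lies at 6.49 CPM, far under the other controls.

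Sptlc1 and Sptlc2 encode subunits of serine palmitoyltransferase, which catalyses the first and committed step of sphingolipid synthesis. Sptlc2 (ENSCGRG00001012086), a catalytic subunit, was at 83.7, 83.4 and 85.5 CPM in 37 °C replicates A, B and C. It read 81.9, 87.9, 83.3 and 82.1 CPM after 1 h at 40 °C and 81.6, 84.4, 88.0 and 83.9 CPM after 6 h. At 42.5 °C it read 92.1, 91.5, 96.8 and 101 CPM, so that all 4 libraries of moderate heat lay above all 11 others that were compared.

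Relative to 37 °C, the rise of Sptlc2 at 42.5 °C was 0.17 (log2, SE 0.05, adjusted p = 0.00931), a gain of 12.8%. It was 0.18 over 40 °C for 1 h (adjusted p = 0.00709) and 0.17 over 40 °C for 6 h (adjusted p = 0.00952). The differences of the mild heat groups from 37 °C were -0.01 and 0.00, with 95% intervals of -0.10 to 0.09 and -0.10 to 0.11. With 37 °C replicate D, which stood at 95.5 CPM, the rise over 37 °C was 0.14 and no longer passed (adjusted p = 0.15, the highest of 14 alternatives, whose lowest was 0.00399). The comparisons with the other heated groups, which do not use replicate D, passed under all their alternatives except the test against a 1.5-fold change.

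The partner subunit Sptlc1 (ENSCGRG00001000731) passed in none of the 6 comparisons. Its group means were 97.7 ± 7.20 CPM (SD, n = 3) at 37 °C, 94.3 ± 4.38 and 94.3 ± 6.06 CPM (n = 4 each) after 1 h and 6 h at 40 °C, and 95.4 ± 4.28 CPM (n = 4) at 42.5 °C. Its 3 differences from 37 °C lay between -0.05 and -0.04 on the log2 scale, and the widest of their intervals ran from -0.18 to 0.07. Whether Sptlc2 moved differently from Sptlc1 was not tested. As a description, the log2 ratio of Sptlc2 to Sptlc1 reads within a library was between -0.31 and -0.07 in the 11 libraries compared at 37 °C and 40 °C. It was 0.04, -0.12, 0.04 and 0.04 in the 4 libraries at 42.5 °C. In 37 °C replicate D, which was left out, it was -0.03.

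Ceramide synthases attach a fatty acid to the long-chain base, each with its own preferred chain length: Cers2 prefers very long chains, whereas Cers5 and Cers6 prefer palmitic acid. Cers2 (ENSCGRG00001014039) was lower at 42.5 °C, and Cers5 and Cers6 passed only in comparisons with cells kept at 40 °C for 6 h. Cers2 stood at 58.7, 63.5 and 57.8 CPM at 37 °C and at 53.2, 56.2, 57.5 and 49.0 CPM at 42.5 °C. The ranges did not overlap, by a gap that was narrow, since the highest heated library was just under the lowest control. Under mild heat Cers2 was at 65.0, 62.7, 61.1 and 60.7 CPM after 1 h and at 62.5, 61.2, 63.4 and 62.4 CPM after 6 h.

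For Cers2 the log2 difference between 42.5 °C and 37 °C was -0.16 (SE 0.06, adjusted p = 0.0432), and it passed under 6 of 14 alternatives, with adjusted p between 0.0281 and 0.511. It did not pass by DESeq2 (0.0831), with all 4 controls (0.511), or without any 1 of 37 °C replicates A (0.0676) and B (0.209) or 42.5 °C replicates A (0.079), B (0.0529) and D (0.118). Against mild heat the same 4 libraries were lower by a firmer margin. The difference was -0.22 from 40 °C for 1 h (SE 0.06, adjusted p = 0.00653) and -0.22 from 40 °C for 6 h (SE 0.06, adjusted p = 0.00503), without overlap, and both passed under every alternative except the test against a 1.5-fold change. In the RefSeq annotation of another assembly (CriGri-PICRH-1.0), Cers2 overlaps the gene Anxa9, and Cers6 and Degs1 each overlap a pseudogene. Whether reads were assigned by strand is not given in the sources used here, so reads of the partners cannot be told apart.

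Cers5 (ENSCGRG00001010347) was at 72.8, 74.5 and 66.1 CPM at 37 °C and at 72.7, 66.2, 74.8 and 75.2 CPM after 1 h at 40 °C. After 6 h at 40 °C it read 63.3, 65.6, 62.1 and 67.7 CPM, and at 42.5 °C 73.2, 67.6, 76.9 and 73.9 CPM. The 6 h group was the lowest on average, although it overlapped each of the other groups.

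The log2 difference of Cers5 at 6 h was -0.16 from 1 h at 40 °C (SE 0.05, adjusted p = 0.0492) and -0.14 from 37 °C (interval -0.26 to -0.02, adjusted p = 0.0707). The first passed under 6 of 14 alternatives, whose adjusted p ran from 0.025 to 0.131. It was lost by DESeq2 (0.0605), without a filter (0.0508), and without 1 h replicate A (0.103), C (0.123) or D (0.114) or 6 h replicate A (0.0872), B (0.0759) or C (0.131). The second passed without 37 °C replicate C (0.0352). At 42.5 °C Cers5 was 0.17 higher than after 6 h at 40 °C (SE 0.05, adjusted p = 0.0177), which was lost without 6 h replicate C (0.0593) or 42.5 °C replicate C (0.0672) in an overall range of 0.00967 to 0.0672.

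Cers6 (ENSCGRG00001024870), the enzyme of this set with the fewest reads, was at 18.4, 19.0 and 17.1 CPM at 37 °C and at 17.2, 21.2, 19.1 and 17.4 CPM after 1 h at 40 °C. It was at 16.4, 16.1, 15.8 and 17.9 CPM after 6 h and at 17.5, 24.1, 19.5 and 20.7 CPM at 42.5 °C. None of its differences from 37 °C passed: the log2 values were 0.04, -0.14 and 0.16, and the widest interval, at 42.5 °C, ran from -0.05 to 0.37. With 37 °C replicate D, where Cers6 was far lower, the values became 0.29, 0.11 and 0.41, the sign after 6 h turning, and again none passed. Between the heated groups, Cers6 was 0.30 higher at 42.5 °C than after 6 h at 40 °C (SE 0.10, adjusted p = 0.0172), with ranges that overlapped. Without 42.5 °C replicate B, its highest library, the difference was 0.22 and did not pass (adjusted p = 0.0803, in a range of 0.00558 to 0.0803).

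A ratio of 2 genes within a library does not depend on how libraries are scaled. The ratios below were chosen after their values were seen and are given without a test. The log2 ratio of Cers2 to Cers6 reads was 1.73 ± 0.04 (SD, n = 3) at 37 °C, 1.74 ± 0.15 (n = 4) after 1 h at 40 °C and 1.92 ± 0.09 (n = 4) after 6 h. At 42.5 °C it was 1.60, 1.22, 1.56 and 1.24, all under the lowest control value of 1.68. The 6 h libraries, from 1.80 to 2.01, all lay above 1.76, the highest value of the 3 controls compared. Prolonged mild heat and moderate heat thus lay on opposite sides of these 3 controls. The libraries of 1 h at 40 °C, at 1.92, 1.57, 1.68 and 1.80, reached to both sides. Replicate D, which was left out, was at 2.96, above every 6 h library. For Cers2 to Cers5 the means were -0.24 at 37 °C, -0.21 after 1 h, -0.05 after 6 h and -0.43 at 42.5 °C. The 6 h libraries again lay above the 3 controls compared, and 3 of the 4 libraries at 42.5 °C lay below them. Here replicate D was at -0.72, below every library at 42.5 °C.

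**Figure D2:**
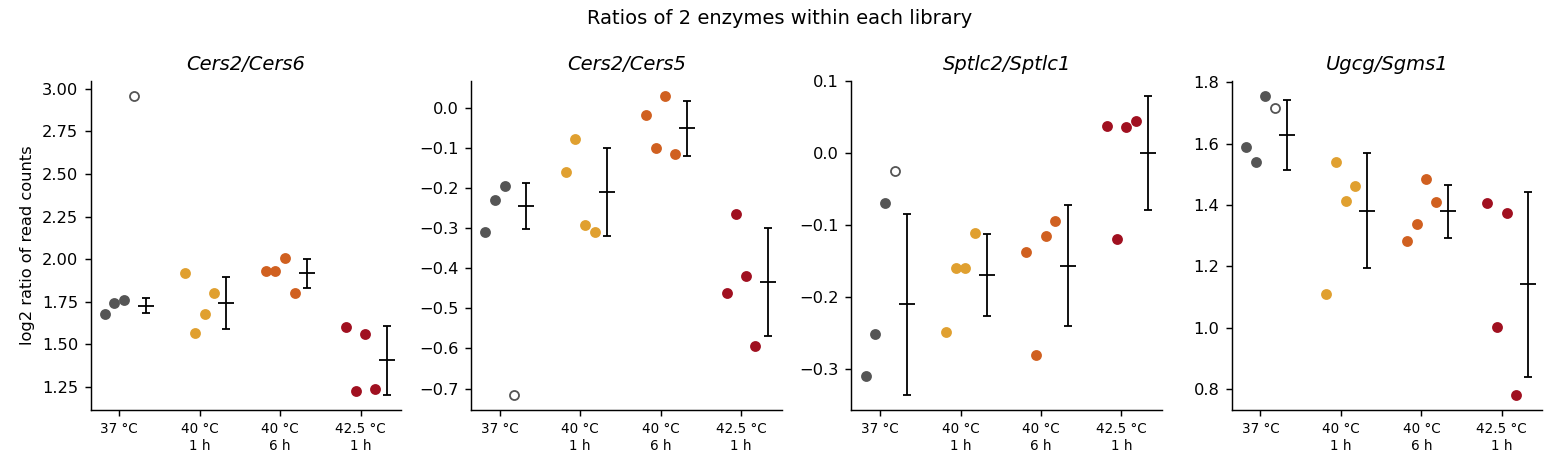
Log2 ratio of the read counts of 2 enzymes within each library (vertical axes, a separate scale per panel, not starting at 0) for Cers2/Cers6, Cers2/Cers5, Sptlc2/Sptlc1 and Ugcg/Sgms1. Filled points are the libraries compared, the open point is 37 °C replicate D, and the bar is the mean ± SD of the filled points. Among the filled points, Cers2/Cers6 has its highest mean after 6 h at 40 °C, 1.92, and its lowest at 42.5 °C, 1.41. Its open point lies at 2.96.

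Degs1 (ENSCGRG00001002610) encodes the desaturase that turns dihydroceramide into ceramide, the last step of synthesis. It was at 226, 228 and 247 CPM at 37 °C, at 236, 246, 253 and 267 CPM after 1 h at 40 °C and at 206, 197, 238 and 237 CPM after 6 h. At 42.5 °C it was at 247, 250, 264 and 255 CPM, every library above the controls, though the lowest of them was only just above the highest control.

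The log2 difference of Degs1 at 42.5 °C was 0.11 from 37 °C (SE 0.04, adjusted p = 0.0421) and 0.20 from 40 °C for 6 h (SE 0.06, adjusted p = 0.00739). The second passed under every alternative except the test against a 1.5-fold change. The first passed under 9 of 14, with adjusted p between 0.0124 and 0.784, and was lost with all 4 controls (log2 0.04, adjusted p = 0.784), in 1 fit over all groups (0.111) and without 37 °C replicate A (0.171) or B (0.149) or 42.5 °C replicate C (0.101). Within 40 °C, Degs1 was lower after 6 h than after 1 h by -0.19 (SE 0.06, adjusted p = 0.0362), with overlapping ranges. That call was lost without 1 h replicate B (0.0581), C (0.0784) or D (0.0972) or 6 h replicate A (0.0836) or B (0.115), in a range of 0.00561 to 0.115.

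Ceramide leaves for sphingomyelin through Sgms1, and for glucosylceramide, the root of most glycosphingolipids, through Ugcg. Ugcg (ENSCGRG00001024347) gave the largest difference from 37 °C of the 10. Its level was 99.4, 111 and 112 CPM at 37 °C and 85.6, 105, 101 and 93.9 CPM after 1 h at 40 °C. It was 84.6, 81.1, 85.2 and 91.0 CPM after 6 h at 40 °C and 81.8, 72.6, 89.0 and 76.9 CPM at 42.5 °C. All 8 libraries of these last groups lay below all 3 controls, whereas the 1 h group at 40 °C overlapped with the controls.

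The log2 level of Ugcg fell by 0.33 after 6 h at 40 °C (SE 0.06, adjusted p = 0.00037) and by 0.43 at 42.5 °C (SE 0.06, adjusted p = 7.54e-05), losses of 20.7% and 25.9%. Both passed under each of the 14 alternatives other than the test against a 1.5-fold change, with adjusted p of at most 0.0254 and 0.0105. For 1 h at 40 °C the difference was -0.16 (SE 0.07, interval -0.30 to -0.02) and did not pass (adjusted p = 0.278). It passed under 1 of 14 alternatives, with the letters A to D as a replicate block (-0.15, adjusted p = 0.0283). The group means came in the order 37 °C (108 ± 7.18 CPM, n = 3), 40 °C for 1 h (96.5 ± 8.69, n = 4), 40 °C for 6 h (85.5 ± 4.10, n = 4) and 42.5 °C (80.1 ± 7.02, n = 4). No neighbours in this order passed: 6 h differed from 1 h at 40 °C by -0.17 (adjusted p = 0.0574) and 42.5 °C from 40 °C for 6 h by -0.10 (adjusted p = 0.184). The 42.5 °C and 40 °C groups heated for 1 h did differ, by -0.28 (SE 0.07, adjusted p = 0.00574), with 1 library of moderate heat inside the range of mild heat.

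The comparison of 6 h with 1 h at 40 °C turned on single libraries. Ugcg passed there without 1 h replicate A (-0.23, adjusted p = 0.0164) or 6 h replicate D (-0.21, adjusted p = 0.0413). It also passed without a filter (adjusted p = 0.0352) and with the replicate block (adjusted p = 0.0449), in a range of 0.0164 to 0.182. The comparison of 42.5 °C with 6 h likewise passed without 42.5 °C replicate C (-0.16, adjusted p = 0.0452). Set against all genes, the fall of Ugcg was not unusual in size: 15.2% of the genes tested after 6 h at 40 °C and 13.8% at 42.5 °C differed from 37 °C by as much or more.

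Sgms1 (ENSCGRG00001010915), the Golgi sphingomyelin synthase, passed in none of the 6 comparisons. Its means were 34.9 ± 2.92 CPM (n = 3) at 37 °C, 37.0 ± 2.37 and 32.9 ± 2.02 CPM after 1 h and 6 h at 40 °C, and 36.5 ± 5.88 CPM at 42.5 °C (n = 4 each). The spread at 42.5 °C was the widest, from 30.9 CPM in replicate A to 44.7 CPM in replicate D. Without that replicate A it was 0.23 higher at 42.5 °C than after 6 h at 40 °C (adjusted p = 0.0478), and without 40 °C, 1 h replicate D its log2 difference of 6 h from 1 h was -0.21 (adjusted p = 0.0492). Both come from alternatives only. With 1 library left out at a time, the first difference ran from 0.03 to 0.23 (adjusted p up to 0.75). The second ran from -0.21 to -0.13 (adjusted p up to 0.239). The log2 ratio of Ugcg to Sgms1 reads within a library was 1.63 ± 0.11 at 37 °C, 1.38 ± 0.19 and 1.38 ± 0.09 after 1 h and 6 h at 40 °C and 1.14 ± 0.30 at 42.5 °C. All 8 libraries of the last groups lay below the lowest control value of 1.54.

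Smpd1 (ENSCGRG00001013290) encodes acid sphingomyelinase, which returns sphingomyelin to ceramide in the lysosome. Its group means stayed between 109 and 112 CPM, the narrowest range of the 10 genes (0.03 on the log2 scale). Its 3 differences from 37 °C lay between -0.01 and 0.03, with interval bounds between -0.12 and 0.14.

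Sphk1 (ENSCGRG00001021094), which phosphorylates sphingosine to sphingosine 1-phosphate, was lower after 6 h at 40 °C and at 42.5 °C. It stood at 40.7, 41.4 and 37.7 CPM at 37 °C and at 42.5, 39.4, 40.3 and 38.7 CPM after 1 h at 40 °C. After 6 h at 40 °C it read 36.8, 32.3, 38.5 and 27.4 CPM, and at 42.5 °C 35.8, 32.9, 29.7 and 32.3 CPM. The libraries of moderate heat lay below all those at 37 °C and at 40 °C for 1 h. The 6 h group was scattered, with replicate C inside the control range and replicate D the lowest of all.

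At 42.5 °C the log2 level of Sphk1 fell by 0.30 from 37 °C (SE 0.07, adjusted p = 0.00273) and by 0.31 from 40 °C for 1 h (SE 0.06, adjusted p = 0.00176). Both passed under each of the 14 alternatives other than the test against a 1.5-fold change, with adjusted p of at most 0.02 and 0.0091. After 6 h at 40 °C the difference from 37 °C was -0.25 (SE 0.09, adjusted p = 0.0489), and it passed under 5 of 14 alternatives only, with adjusted p between 0.00998 and 0.178. It was lost by DESeq2 (0.0544), with a minimum of 10 counts in every library (0.0545), with all 4 controls (0.113), and without 37 °C replicate A (0.145), B (0.178) or C (0.0558) or 6 h replicate B (0.0915) or D (0.146). Without 6 h replicate D the log2 difference was -0.16, and without B it was -0.23.

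Sphk1 also differed between 6 h and 1 h at 40 °C, by -0.26 (SE 0.09, adjusted p = 0.0464), with no overlap of the libraries. Leaving out any of the 4 libraries of the 1 h group, or 6 h replicate B or D, ended that call, with adjusted p of 0.119, 0.0721, 0.0913 and 0.0525 without 1 h replicates A to D and of 0.115 and 0.121 without 6 h replicates B and D. The lowest value among the 14 alternatives was 0.0174. Without 6 h replicate D the log2 difference was -0.17. After 1 h at 40 °C the difference from 37 °C was 0.01 with an interval of -0.12 to 0.14, and 42.5 °C differed from 40 °C for 6 h by -0.05 with an interval of -0.25 to 0.15.

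Taking the heated groups against each other, 3 of the 10 enzymes passed between 6 h and 1 h at 40 °C, namely Cers5, Degs1 and Sphk1, all lower at 6 h, where 18.5% of 10439 genes passed and 9.04% passed as lower. Between 42.5 °C and 40 °C for the same 1 h, 4 passed, with Sptlc2 higher and Cers2, Ugcg and Sphk1 lower, where 36.1% of 10441 genes passed, 16.4% as higher and 19.6% as lower. Setting moderate heat against 6 h of mild heat, 5 passed, with Sptlc2, Cers5, Cers6 and Degs1 higher and Cers2 lower, where 47.0% of 10427 genes passed, 22.5% as higher and 24.5% as lower. In this last comparison temperature and time differ together and cannot be told apart. The untreated cultures carry no time label. Between 6 h and 1 h at 40 °C, time in heat and time in culture therefore cannot be told apart. Heat and time in culture likewise cannot be told apart where a heated group, after 6 h or 1 h, is compared with untreated cultures.

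The 6 h comparison within 40 °C had a lower median among the enzymes, -0.17 on the log2 scale with 8 of 10 values negative, than among all genes tested, whose median was 0.00. The median size of the 10 differences was 0.17 there, beside 0.11 for all genes. In the other direct comparisons the sizes were 0.07 beside 0.13 and 0.16 beside 0.17. None of the enzymes was a DEG between heated groups, where 1.28%, 5.27% and 8.25% of the genes tested were, and the highest interval bound was 0.50, for Cers6.

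**Figure D3:**
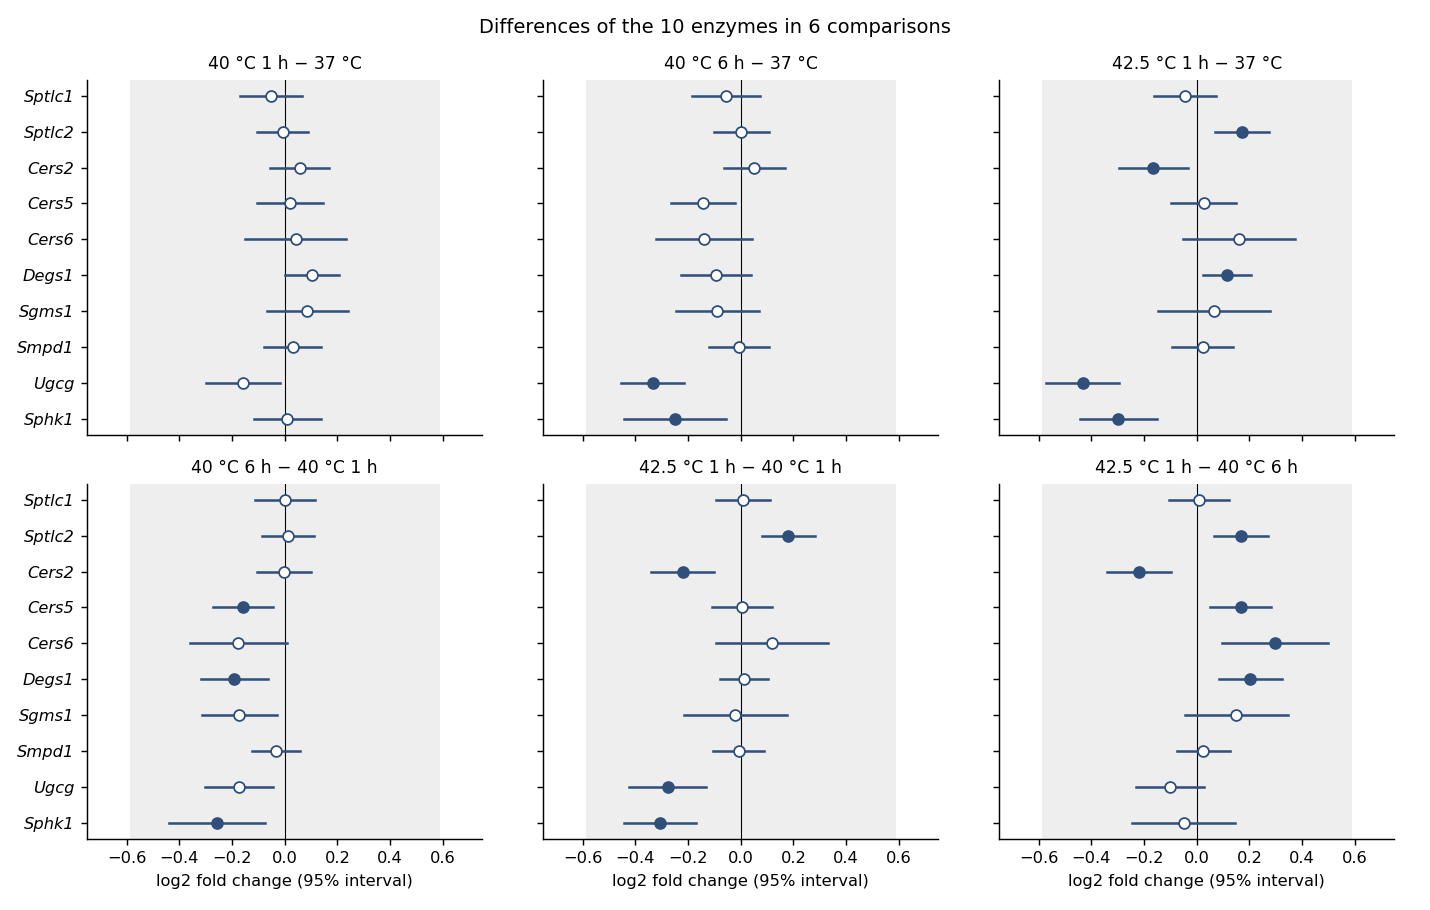
Log2 fold change of each enzyme with its 95% interval (horizontal axes) in the 6 comparisons between groups. Filled points passed at an adjusted p under 0.05, open points did not, and the grey band marks differences of less than 1.5-fold. Every interval stays within the band, Ugcg reaching furthest down with a bound of -0.57 and Cers6 furthest up with 0.50.

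**Figure D4:**
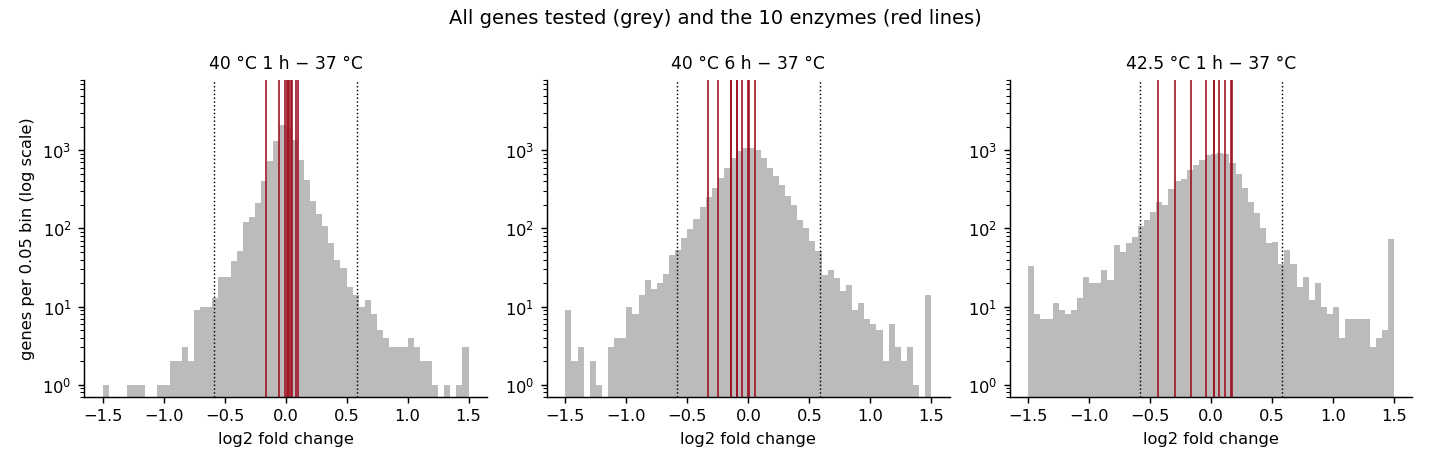
Number of tested genes per bin of 0.05 in log2 fold change from 37 °C (grey bars, log scale) for the 3 heat treatments, with the 10 enzymes as red lines. Dotted lines mark 1.5-fold, and the outermost bars hold all genes beyond 1.5 on the log2 scale. The enzymes lie in the body of each distribution, between -0.16 and 0.10, between -0.33 and 0.05, and between -0.43 and 0.17.

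The wider pathway was followed with a list of 62 further names, 2 of which are older or newer names of others on the list, from synthesis, transport, salvage, the lysosome and sphingosine 1-phosphate signaling. Of these, 56 were found in the counts and 36 were tested. The other 20 had at most 36 counts summed over all 16 libraries, and 6 of them had 0. Of the 36, 1 passed after 1 h at 40 °C, 8 passed after 6 h (5 higher and 3 lower), and 12 passed at 42.5 °C (7 higher and 5 lower), against 1.64%, 29.4% and 43.1% of all genes. The medians of the list were 0.03, -0.02 and 0.07 on the log2 scale. Of the 21 differences that passed, 8 passed under every alternative except the test against a 1.5-fold change, and the same number passed with all 4 controls.

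The largest falls of the list were those of Neu3 and B4galt5, at 42.5 °C. Neu3, a plasma membrane sialidase of gangliosides, was at 6.78 to 7.85 CPM at 37 °C and at 2.76 to 3.63 CPM at 42.5 °C, a DEG with a log2 difference of -1.25 (SE 0.14, adjusted p = 6.69e-06). B4galt5, a lactosylceramide synthase that uses the product of Ugcg, went from 67.1 to 71.6 CPM down to 30.2 to 41.9 CPM, a DEG at -0.96 (SE 0.08, adjusted p = 3.17e-07). B4galt5 was also lower after 6 h at 40 °C (-0.23, SE 0.06, adjusted p = 0.00581), which did not pass with all 4 controls (0.191) or without 37 °C replicate B (0.051). St3gal5, which makes the ganglioside GM3, was 0.26 higher after 6 h (SE 0.08, adjusted p = 0.0168), a call that all 4 controls ended (0.369) and that was lost without 37 °C replicate A (0.0527), B (0.11) or 6 h replicate C (0.0555).

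Sgpl1, the lyase that irreversibly degrades sphingosine 1-phosphate, was the one gene of the list to pass in all 3 comparisons with 37 °C, each time higher. Its ranges were 63.3 to 64.3 CPM at 37 °C, 71.4 to 75.6 and 77.6 to 86.8 CPM after 1 h and 6 h at 40 °C, and 72.2 to 79.8 CPM at 42.5 °C. The log2 differences were 0.20 (SE 0.05, adjusted p = 0.0407), 0.37 (SE 0.06, adjusted p = 0.00014) and 0.25 (SE 0.05, adjusted p = 0.00104). The first passed under 4 of 14 alternatives. It was lost without any 1 of the 7 libraries (adjusted p 0.0563 to 0.203) and with all 4 controls (0.317). The other differences passed under all 14, which do not include the test against a 1.5-fold change.

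Several genes around ceramide synthesis and transfer passed. Ormdl3, a brake on serine palmitoyltransferase, was lower at 42.5 °C (114 against 152 CPM, log2 -0.41, SE 0.04, adjusted p = 1.95e-06), in the same libraries in which Sptlc2 was higher. Sgms2, the second sphingomyelin synthase, was 0.38 higher (SE 0.08, adjusted p = 0.00119), and Samd8, which makes ceramide phosphoethanolamine, was 0.21 higher (SE 0.04, adjusted p = 0.000886). After 6 h at 40 °C, Kdsr, the reductase that follows serine palmitoyltransferase, was lower (-0.29, SE 0.08, adjusted p = 0.0094), and the ceramide carrier Cert1 was higher (0.17, SE 0.06, adjusted p = 0.0378). Neither of these passed with all 4 controls (0.109 and 0.103). Cert1 was also lost by DESeq2 (0.0583). The same held without 37 °C replicate A (0.128) or C (0.152) or 6 h replicate B (0.073) or D (0.0731). At 42.5 °C Kdsr (-0.16, adjusted p = 0.0509) and Cert1 (0.15, adjusted p = 0.0504) had the same signs and did not pass. Kdsr passed there under 0 of 14 alternatives and Cert1 under 6 of 14 (lowest adjusted p = 0.0097). Between 42.5 °C and 40 °C for 6 h neither gene passed (adjusted p = 0.169 and 0.765).

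Genes of breakdown passed in both directions. Smpd3, a neutral sphingomyelinase, had only 11 to 45 counts in a library. It was a DEG after 6 h at 40 °C (log2 0.94, SE 0.23, adjusted p = 0.00503). With all 4 controls it was not (0.63, adjusted p = 0.152). After 1 h at 40 °C Smpd3 was 0.79 higher than at 37 °C, without overlap, but did not pass (adjusted p = 0.113). Nor did 6 h against 1 h at 40 °C (adjusted p = 0.604). Gba2, the glucosylceramidase outside the lysosome, was lower at 42.5 °C (-0.49, SE 0.10, adjusted p = 0.00128). Among lysosomal genes, Glb1 (0.16, adjusted p = 0.0156), Gla (0.22, adjusted p = 0.0449) and Psap (0.10, adjusted p = 0.0485) were higher at 42.5 °C, and Neu1 was lower (-0.24, adjusted p = 0.0173). With all 4 controls these 4 did not pass, with adjusted p between 0.134 and 0.693. Gla was also higher after 6 h at 40 °C (0.22, adjusted p = 0.0151) and Neu1 lower (-0.32, adjusted p = 0.00799), and neither passed with all 4 controls (0.715 and 0.075). Single libraries decided some of these. At 42.5 °C Gla did not pass without 37 °C replicate A (0.107), B (0.132) or C (0.0719) or 42.5 °C replicate B (0.0597), C (0.069) or D (0.118). Psap did not pass without 37 °C replicate A (0.0812), B (0.108) or C (0.111) or 42.5 °C replicate A (0.0918), B (0.0532) or C (0.107), and Glb1 did not without 37 °C replicate A (0.059). Neu1 was lost without 37 °C replicate A or B, both at 42.5 °C (0.0865 and 0.101) and after 6 h at 40 °C (0.055 and 0.0636), and Gla after 6 h without 37 °C replicate B (0.0656) or 6 h replicate C (0.057).

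**Figure D5:**
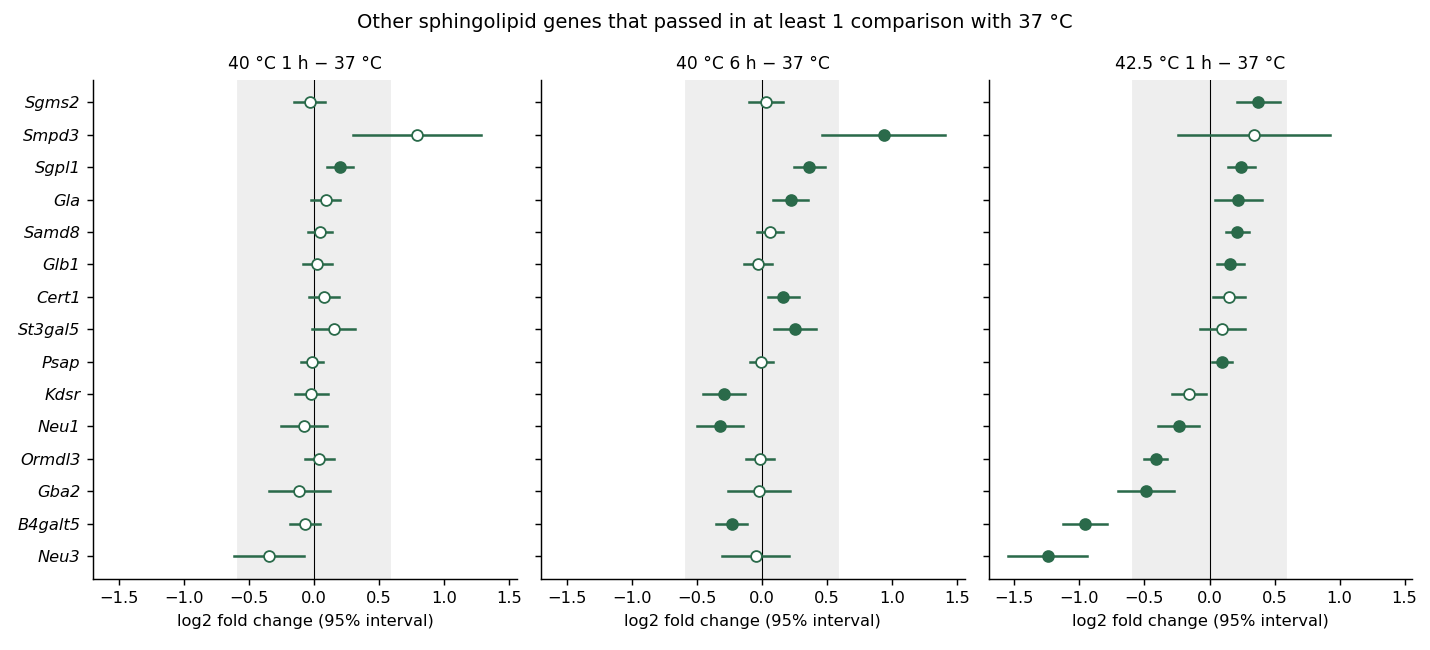
Log2 fold change from 37 °C with its 95% interval (horizontal axes) for 15 further sphingolipid genes that passed in at least 1 of the 3 heat treatments. Filled points passed at an adjusted p under 0.05, and the grey band marks differences of less than 1.5-fold. Neu3 and B4galt5 lie outside the band at 42.5 °C, at -1.25 and -0.96. Smpd3 lies outside it at 40 °C, at 0.94 after 6 h and at 0.79 after 1 h, where it did not pass.

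The 2 enzymes whose group means spanned the widest range were Ugcg (0.43 on the log2 scale) and Sphk1 (0.30). Over the 15 libraries, the genes whose log2 CPM followed Ugcg most closely among 10564 were Slc20a2 (Pearson r 0.928), Hspa13 (0.921) and Fjx1 (0.918). Slc20a2, a phosphate transporter, averaged 30.6 CPM at 37 °C, 28.5 and 25.5 CPM after 1 h and 6 h at 40 °C and 21.9 CPM at 42.5 °C. Those that followed Sphk1 most closely were Rffl (0.910), Rnd2 (0.888) and Sfxn5 (0.884), and Rffl averaged 13.8, 14.0, 12 and 11.9 CPM in the same order of groups. These values describe likeness across libraries that share their heat treatments and were picked as the highest of many.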

How the data were processed

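The series holds 16 RNA-seq libraries of CHO cells, 4 in each of 4 groups named by the sample titles. The authors deposited raw read counts per gene, for which reads were trimmed, aligned to the Cricetulus griseus build CHOK1GS_HDv1 and assigned to genes in CLC Genomics Workbench. The annotation release, the strand setting and the treatment of reads with several mapping places are not given in the sources used here, and counts that overlapping genes or pseudogenes share could be split between them.

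Pairs of groups were compared with the quasi-likelihood test of edgeR 4.0.16 (R 4.3.3) after filterByExpr and TMM scaling, with Benjamini-Hochberg adjustment over all genes tested, and all 10 enzymes passed the filter in the 6 comparisons. Each heated group was compared with 37 °C, as the study did, and with the other heated groups. DEGs differed by at least 1.5-fold with an adjusted p under 0.05. 37 °C replicate D was left out: 36 of its counts for 920 genes were identical to a column that the study prints, against 920 for the other 15 libraries. Totals of 10504192 to 14668365 counts put the floor of 3 counts at 0.205 to 0.286 CPM, for counting error only. On simulated counts, the test recovered 86 of 89 genes changed 2-fold for 40 °C, 1 h against 37 °C. It recovered 77.8% of those changed 1.3-fold there, and at least 75% in each comparison. False calls were 4.21% to 8.16% of all calls, the highest share being for 40 °C, 6 h against 40 °C, 1 h. Recovery of changes smaller than 1.3-fold was not tested.

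The enzymes, the list of further genes and the alternatives were chosen with earlier results of these data known. Named were all 10 enzymes, the further genes that passed in at least 1 comparison with 37 °C, the 3 genes most like the 2 enzymes with the widest range, and heat-marker genes; 1 further gene that passed is counted but not reported here. The alternatives were no filter or a minimum of 10 counts, the size factors or the Wald test of DESeq2 1.42.0, all 4 controls, a single fit of the 4 groups, a replicate block by letter, glmTreat against 1.5-fold and each library left out. The column of gene identifiers was used as given, and the RefSeq annotation of CriGri-PICRH-1.0, another assembly, was used by symbol to find overlapping genes. Sequences are not shown because none of the build used is at hand.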

Additional observations from a re-analysis of the deposited data

Results flagged for a closer look

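In 37 °C replicate D, Cers6 was at 6.49 CPM, whereas the other 3 control libraries were at 17.1 to 19.0 CPM. Its gap to the nearest library was 0.848 of the group's whole range, above Dixon's 95% critical value for 4 samples. Of the 40 groups of 4 libraries looked at (10 enzymes in 4 groups) this was the 1 that stood out, and chance alone flags about 1 in 20. The replicate was not used in the comparisons, and its part in the results was given as an alternative.

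Levels after 6 h at 40 °C were lower than after 1 h for Cers5 (-0.16 on the log2 scale), Degs1 (-0.19) and Sphk1 (-0.26). The direct comparison of the heated groups with edgeR gave adjusted p of 0.0492, 0.0362 and 0.0464. Each of these calls was lost when some single libraries were left out. The untreated cultures carry no time label, so time in heat and time in culture cannot be told apart here.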

How the results depend on the processing

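Of 19 differences of an enzyme that passed, 10 passed under every alternative except glmTreat, and of 41 that did not, 7 passed under at least 1. Among the 10, those against 37 °C were Ugcg after 6 h at 40 °C and at 42.5 °C, and Sphk1 at 42.5 °C. The rest were between heated groups, where the alternative with all 4 controls does not apply. Of 900 log2 differences of the enzymes under alternatives, 825 stayed on their side of the threshold, 64 no longer passed and 11 newly passed. The 64 include all 19 under glmTreat. In 62 of the 900 the sign changed, and 0 of these passed in either fit (largest size 0.105). No enzyme was called a DEG under any of the alternatives. Adding 37 °C replicate D lowered the enzymes that passed to 1 (Ugcg, from 2) after 6 h at 40 °C and to 2 (Ugcg and Sphk1, from 5) at 42.5 °C, all genes that passed to 4, 1122 and 1895 (from 172, 3091 and 4510), DEGs after 1 h at 40 °C to 3 (from 35) and further sphingolipid genes to 0, 1 and 7 (from 1, 8 and 12). The cause was not tested.

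By glmTreat, which asks for a difference beyond 1.5-fold, 0 enzymes passed in any of the 6 comparisons. For all genes it left 2, 31 and 262 against 37 °C, 8 for 6 h against 1 h at 40 °C, 171 for 42.5 °C against 40 °C, 1 h and 260 for 42.5 °C against 40 °C, 6 h, where 35, 326, 786, 134, 550 and 860 were DEGs, and for further sphingolipid genes 0, 0, 2, 0, 1 and 1. For 1 h at 40 °C, 323 genes passed without a filter, 107 in 1 fit over all groups, and 0 further sphingolipid genes by DESeq2 or in that 1 fit. After 6 h at 40 °C, 1 enzyme passed by DESeq2 and with a minimum of 10 counts.

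Without single libraries, the enzymes that passed numbered 1 to 2 after 6 h at 40 °C, 3 to 5 at 42.5 °C, 0 to 3 for 6 h against 1 h and 4 to 6 for 42.5 °C against 40 °C, 6 h. After 1 h at 40 °C, 63 to 276 genes passed and 23 to 56 were DEGs, and 1282 to 2080 genes passed for 6 h against 1 h. Further sphingolipid genes numbered 0 and 4 to 10 after 1 h and 6 h at 40 °C, 0 to 6 for 6 h against 1 h and 7 to 11 for 42.5 °C against 40 °C, 1 h. CPM scaled by totals alone put Sptlc2 at 37 °C at 86.3 CPM (84.2 with TMM) and Degs1 at 42.5 °C at 246 CPM (254 with TMM).

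The letters A to D are shared between groups, but the labels do not say what they mark, and they were not taken as pairs: after removing group means, the mean r was 0.05 for 21 pairs of libraries with the same letter and -0.02 for 63 pairs with different letters. Between 37 °C and 40 °C, 1 h the 3 same-letter pairs gave a mean r of 0.15 (0.095 to 0.18). With the letter as a replicate block, 1 enzyme passed after 1 h at 40 °C (Ugcg, -0.15, adjusted p = 0.0283), 634 genes did so, and 5 further sphingolipid genes passed for 6 h against 1 h. Under the replicate block Sphk1 after 6 h at 40 °C (adjusted p = 0.142) and Cers2 at 42.5 °C (0.0984) against 37 °C did not pass, and Cers5 (0.0388) and Degs1 (0.0426) after 6 h at 40 °C against 37 °C and Ugcg for 6 h against 1 h (0.0449) did. Gla at 42.5 °C did not pass either (0.12, adjusted p = 0.103), and Cert1 at 42.5 °C did (0.0097).

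The fewest reads of an enzyme in the libraries compared were 186, for Cers6. Whether depth limits the finding of small differences in such a gene was not tested.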

Other observations

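Of the 10 enzymes, 37 °C replicate D lay above the range of the other controls for 5 (Sptlc2, Cers5, Degs1, Smpd1 and Sphk1), below it for 4 (Cers2, Cers6, Sgms1 and Ugcg) and inside it for Sptlc1. In that library Degs1 was at 294 CPM, against 226 to 247 CPM in replicates A to C, and Sptlc2 was at 95.5 CPM, against 83.4 to 85.5 CPM. Its Ugcg value, 98.6 CPM, was just under the lowest of the others at 99.4 CPM and still above every library of 40 °C for 6 h and of 42.5 °C.

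The log2 ratio of Sphk1 to Smpd1 reads within a library, a further ratio chosen after its values were seen and not tested, was between -1.58 and -1.31 at 37 °C and between -1.89 and -1.65 at 42.5 °C. Besides Dnajb1, the chaperone gene Hsph1 was at 320 to 328 CPM at 37 °C and at 1727 to 3768 CPM at 42.5 °C, and Hspa5, a chaperone of the endoplasmic reticulum, was at 2019 to 2156 CPM at 37 °C and at 3821 to 5820 CPM after 6 h at 40 °C.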
